A study of Mus musculus with 6 samples.

Results

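The genes described here encode Tra2a, Tra2b, Srsf1, Srsf2, Srsf3, Srsf4, Srsf5, Srsf6, Srsf7 and Srsf11, which are the Tra2 splicing regulators and members of the serine/arginine-rich (SR) protein family, and which carry poison exons. They were chosen by name, with earlier results of these data known. Every isoform of the linear RNA table that carries 1 of these symbols and shares exons with the annotated gene was taken. This gave 10 of 54787 genes and 112 of 155855 isoforms. RNA came from the prefrontal cortex of male C57BL/6 mice, 5 weeks old when dosing began and 30 weeks old at sampling. Mice of the PS_high group (3 samples) received 50 mg/kg polystyrene nanoparticles (PS NPs) daily by oral gavage for 6 months, and mice of the control group (3 samples) received water. No transgene or other allele is given for either group. The labels list separate samples without saying which animals they came from, so the p-values below measure only the spread between these samples. The RNA is from bulk tissue, in which fewer cells of a type and less RNA per cell cannot be told apart.

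SR and Tra2 proteins bind short motifs in exons and help the spliceosome to include them. Many of their own genes hold a poison exon, a strongly conserved cassette that brings in an early stop codon when it is spliced into the mRNA. Such an mRNA is degraded by nonsense-mediated decay (NMD) and yields no full-length protein. Several of these proteins promote the poison exon of their own or a related gene when they are abundant, which limits their level. Transcripts that keep an intron are another unproductive form, often held in the nucleus.

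Among the 112 isoforms, 27 were annotated as protein coding, 18 as NMD targets, 31 as retained intron and 8 as other non-coding transcripts. The other 28 were assembled from the reads and carry no type, so whether they encode the protein is not known. Each of the 10 genes had at least 1 annotated coding, 1 NMD and 1 retained-intron isoform. Of the 112 isoforms, 20 had a count of 0 in all 6 libraries, among them 8 coding, 3 NMD and 5 retained-intron ones. In Tra2a, Tra2b, Srsf3 and Srsf7, the NMD isoform that covers at least 80% of the span of the longest coding isoform has 1 exon more than that isoform: 9 exons against 8 in Tra2a, 10 against 9 in Tra2b, 7 against 6 in Srsf3 and 9 against 8 in Srsf7. In Srsf2 the corresponding NMD isoform has 5 exons against 3. In the other genes no NMD isoform reached this span. A mean of at least 0.5 FPKM (fragments scaled by transcript length and library size) over the 6 libraries was asked of a feature before it was tested, and 10 genes and 58 isoforms of the family met it (14 coding, 5 NMD, 15 retained intron, 23 assembled and 1 other).

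The deposited values are estimated counts, for which a read that fits more than 1 isoform was split among them. They summed to between 53344395 and 63466209 in PS_high libraries and between 61842978 and 66004386 in control libraries, and 76.96% to 81.97% of them entered the gene sums. Neuronal markers were present in every library. Their summed level was 4196 to 4494 CPM (counts scaled by library size and TMM factors) in PS_high and 2896 to 3563 CPM in control, without overlap. Without Snap25 the other 4 neuronal markers summed to 2820 to 3119 CPM in PS_high and 2497 to 3066 CPM in control, with overlap. Markers of the cortex summed to 114 to 266 CPM in PS_high and 110 to 270 CPM in control, and those of the striatum to 74.6 to 144 CPM in PS_high and 81.4 to 130 CPM in control. The striatum sum rose from replicate 1 to replicate 3 in both groups, while the cortex sum was highest in replicate 1 of both. All 6 choroid plexus markers tested had a log2 fold change above 0 and none passed the threshold. Their sum varied more within a group than between the groups. In replicates 1, 2 and 3 it was 27.3, 876 and 550.5 CPM in PS_high and 15.8, 471 and 227 CPM in control. Replicate 1 was the lowest and replicate 2 the highest in both groups. The 5 meningeal fibroblast markers tested were also all above 0 (33.5 to 52.5 CPM summed in PS_high and 27.4 to 37.5 CPM in control), and the 4 blood and 4 oligodendrocyte markers were all below 0 (blood 88.2 to 238 CPM in PS_high and 138 to 352 CPM in control, oligodendrocytes 1128 to 1215 CPM in PS_high and 1167 to 1375 CPM in control). None of these passed the threshold. The part of these markers in the results below was not tested.

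The first question was whether the exposure went with a change in the total RNA of these genes. No gene of the family differed between the groups. In edgeR's quasi-likelihood test 0 of the 10 genes passed an adjusted p of 0.05 (Benjamini-Hochberg over all genes), and 0 of 10 had an unadjusted p below 0.05. DESeq2 also called 0 of the 10. Over all 20272 genes tested, 0.0247% were called (5 genes) and 2.73% had an unadjusted p below 0.05. The log2 fold change was above 0 for 2 of the 10 genes and below 0 for 8, with a median of -0.14, against a median of -0.007 over all genes. In CPM the ranges of PS_high and control overlapped for each of the 10 genes, where 7.09% of all genes had groups without overlap. A p that misses the threshold does not show that levels were alike, and the standard errors of 0.13 to 0.35 on the log2 scale set the precision.

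**Figure D1:**
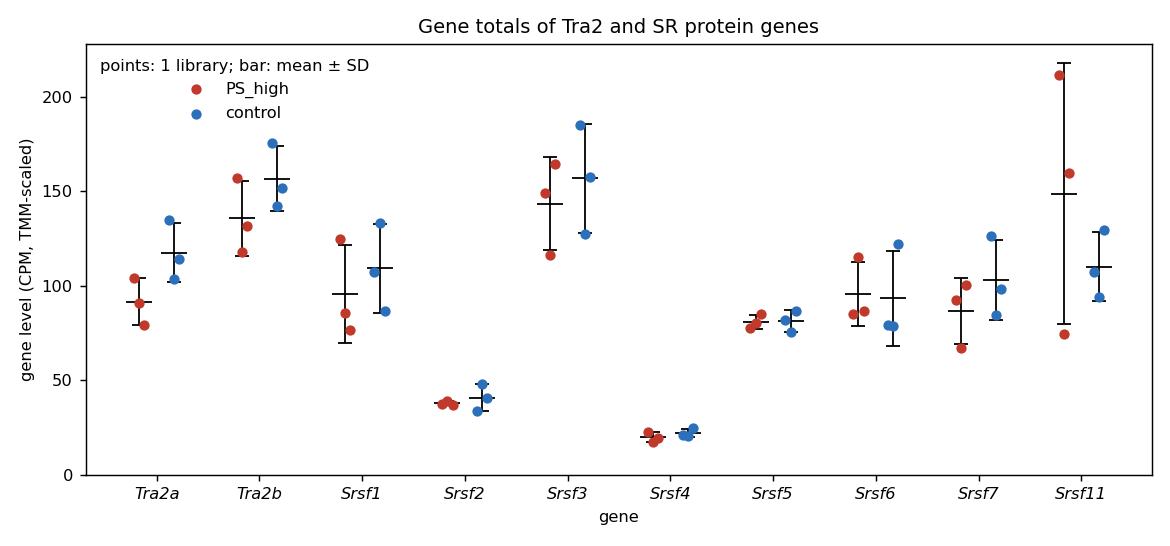
Gene level of the 10 genes in CPM (TMM-scaled), with 1 point per library and the mean ± SD of 3 libraries; PS_high in red to the left of control in blue. The ranges of the groups overlap for each gene, and Srsf11 has the widest spread, from 74.8 to 212 CPM within PS_high.

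Tra2a and Tra2b are the vertebrate counterparts of the fly sex-determination factor transformer 2. Tra2a had 104, 91.1 and 79.4 CPM in PS_high, against 135, 104 and 114 CPM in control. The highest PS_high library lay just above the lowest control library, so the groups overlapped narrowly. Its log2 fold change was -0.36 (SE 0.17, unadjusted p = 0.0623, adjusted p = 1 in edgeR). For Tra2b, which activates many neuronal exons, the levels were 157, 118 and 132 CPM in PS_high and 176, 142 and 152 CPM in control, with a log2 fold change of -0.21 (SE 0.16, adjusted p = 1 in edgeR).

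Srsf1, a founding member of the SR family that also acts in mRNA translation and decay, had 125, 85.7 and 76.5 CPM in PS_high and 107, 133 and 86.8 CPM in control (log2 fold change -0.19, SE 0.24). Srsf2, which stays in the nucleus and binds exonic enhancers, was the tightest gene within PS_high, with 37.7, 39.2 and 37.2 CPM, against 33.7, 48.2 and 40.4 CPM in control (log2 fold change -0.10, SE 0.17). Srsf3 and Srsf7 link splicing to mRNA export. The levels of Srsf3 were 149, 116 and 165 CPM in PS_high and 185, 127 and 158 CPM in control (log2 fold change -0.13, SE 0.19). Those of Srsf7 were 92.6, 66.9 and 101 CPM in PS_high and 126, 84.6 and 98.5 CPM in control (log2 fold change -0.25, SE 0.21).

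Srsf4, Srsf5 and Srsf6 are close relatives within the family, each with a pair of RNA recognition motifs. Srsf4 had the lowest level, with 22.7, 17.3 and 19.6 CPM in PS_high and 21.2, 20.4 and 24.7 CPM in control (log2 fold change -0.16, SE 0.18). Srsf5 varied little, with 77.6, 80.5 and 85.0 CPM in PS_high and 82.0, 75.5 and 86.8 CPM in control (log2 fold change -0.007, SE 0.13). For Srsf6, 1 library of each group stood above the others: 85.1, 115 and 86.8 CPM in PS_high and 79.4, 78.6 and 122 CPM in control (log2 fold change 0.03, SE 0.22). Srsf11, an SR-related protein that takes part in the inclusion of neuronal microexons, had 212, 74.8 and 160 CPM in PS_high and 107, 93.8 and 130 CPM in control. The PS_high libraries hold both its highest and its lowest value. Its log2 fold change was 0.43 (SE 0.35, unadjusted p = 0.251 in edgeR). Without PS_high replicate 1, its highest library, it was 0.099 (unadjusted p = 0.771 in edgeR), and without PS_high replicate 2, its lowest, it was 0.74 (unadjusted p = 0.009, adjusted p = 1 in edgeR).

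Per length, in FPKM summed over isoforms and averaged over all 6 libraries, the order of the levels was Srsf3 (41.0 ± 5.8, SD), Srsf7 (31.3 ± 5.4), Srsf5 (24.5 ± 2.0), Srsf1 (21.3 ± 2.7), Tra2a (20.3 ± 2.6), Srsf6 (19.2 ± 4.0), Srsf2 (17.6 ± 2.9), Srsf11 (17.4 ± 3.3), Tra2b (10.8 ± 0.6) and Srsf4 (7.8 ± 1.0). Neighbours in this order overlapped in their ranges over the libraries, with 2 exceptions: Tra2b (10.01 to 11.56 FPKM) lay below Srsf11 (12.6 to 22.1 FPKM), and Srsf4 (6.0 to 9.1 FPKM) lay below Tra2b.

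The second question was whether productive and unproductive transcripts of these genes took different shares. In Tra2a, the annotated NMD isoform, whose 9 exons are 1 more than those of the coding isoforms, was present in all PS_high libraries and nearly absent from all control libraries. Its share of the Tra2a count averaged 10.5% ± 1.0 in PS_high (SD, 3 libraries) and was at most 0.019% in each control library. The isoform met the filter on low values through its PS_high libraries alone. Its difference passed the threshold in edgeR on the deposited counts. The isoform was no longer called when those counts were rounded to the nearest read or with replicate number as a block. Nor was it called without the filter or when any 1 library was left out. An assembled Tra2a isoform of the same span was lower by 1.94 on the log2 scale at the same time, although that difference did not pass the threshold. None of the other 9 genes had a transcript class that passed the threshold. Libraries of 1 group differed widely for many isoforms and classes, with standard errors of up to 2.8 on the log2 scale, so a class or isoform that was not called is not shown to be alike in both groups.

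The Tra2a NMD isoform is ENSMUST00000203820. In the coordinates of the table, whose genome build no source used here names, it spans chr6:49243924-49264011 on the minus strand, with 9 exons and 2090 bases. It had 535, 433 and 373 counts in PS_high and 1, 1 and 1 counts in control. In FPKM it had 3.35, 3.27 and 2.44 in PS_high and 0.00037, 0.00269 and 0.00171 in control. A deposited count of 1 in control stands for less than 1 read, since FPKM, length and library size give 0.0601, 0.414 and 0.284 reads there. The isoform met the filter on low values through its PS_high libraries alone. All PS_high libraries were above all control libraries.

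Over the groups, 1341 deposited counts in PS_high stood against 3 in control, a ratio of 483 per library size. Its exact 95% interval runs from 165 to 2340, takes the deposited control counts as 3 reads and covers counting error only. Before rounding, the control estimates sum to 0.758 reads, which would give a ratio of 1910. The fitted log2 fold change of 8.77 (SE 0.40) depends on the small prior count that edgeR adds to low values. In edgeR's test the adjusted p was 0.048 over 50548 isoforms, of which 3 were called, or 0.00593%. This was the only call among the 58 isoforms of the family that were tested. The call was lost when any 1 of the 6 libraries was left out, with adjusted p between 0.106 and 0.357, although the log2 fold change stayed between 8.67 and 8.91. It was also lost with replicate number as a block, without the filter on low values (adjusted p = 0.138) and with limma on log2(FPKM + 1) (adjusted p = 0.054). DESeq2 gave an adjusted p of 2.32e-21. With counts rebuilt from FPKM and length and rounded to the nearest read, which puts all control libraries at 0, the adjusted p was 0.25 in edgeR, and this setting was chosen after seeing the data.

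**Figure D2:**
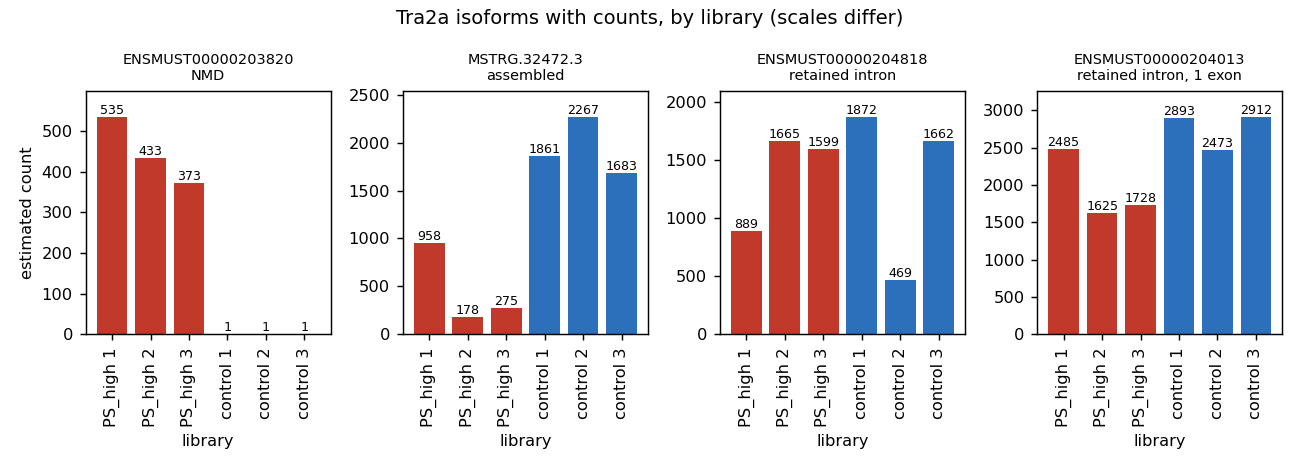
Estimated counts of the 4 Tra2a isoforms with any count, 1 bar per library, PS_high in red to the left of control in blue; each panel has its own scale from 0. The NMD isoform has 373 to 535 counts in PS_high and 1 count in each control library, and the assembled isoform has 178 to 958 counts in PS_high and 1683 to 2267 in control.

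Summed by annotated type, the NMD class of Tra2a holds this isoform alone, so the tests of the class and of its share read the same counts again. The class and its share thus also entered the tests through the PS_high libraries alone. As a class level, its adjusted p was 0.015 in edgeR, and 0.00622% of 32143 classes were called (2 classes). This call was lost in 5 of the 6 fits that left out 1 library (adjusted p 0.0702 to 0.144), with limma on log2(FPKM + 0.1) (0.0666) and with counts rounded to the nearest read (0.205), and it held without PS_high replicate 1 (0.0358). The class call was also lost with replicate number as a block. As a share of the gene it made up 10.99%, 11.10% and 9.38% of the Tra2a count in PS_high, against 0.015%, 0.019% and 0.016% in control. The control shares are deposited counts of 1 over the gene count, and before rounding they were 0.000908%, 0.00794% and 0.00453%. With the gene count as an offset, the log2 fold change of the share was 9.10 (SE 0.19) and the adjusted p was 0.0026 in edgeR, and 0.00883% of 22661 class shares were called (2 shares). Without control replicate 1 the adjusted p of the share was 0.0517, and without any other single library it was between 0.015 and 0.0406. With replicate number as a block the share was not called. The standard error takes in the equal, rounded control counts, and with counts rounded to the nearest read the adjusted p of the share was 0.0812 in edgeR. Measured by FPKM, which corrects for length, the share was 17.4%, 16.8% and 14.4% in PS_high and 0.002%, 0.014% and 0.008% in control. Over the 1034 NMD classes tested in all genes, the median log2 fold change of the class level was 0.001, and 1 class was called, that of Tra2a.

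Differences of this kind in the estimated counts were not limited to Tra2a. Of 49444 isoforms with at least 100 counts in some library, 31 had at least 100 counts in every PS_high library and at most 2 in every control library, or 0.0627%. In the opposite direction there were 51, or 0.103%. In the family, 1 of 64 such isoforms did so, the Tra2a NMD isoform. Within a group, 12060 isoforms had at least 100 counts in 1 library and at most 2 in another, or 24.4%, and 13 of the 64 isoforms of the family did. None of these 13 belonged to Tra2a, Srsf1 or Srsf6, which had 4, 6 and 4 isoforms with at least 100 counts in a library.

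The other isoforms of Tra2a were coding, retained-intron and assembled ones. The 2 annotated coding isoforms, ENSMUST00000204189 and ENSMUST00000031841, with 8 exons each, had a count of 0 in all 6 libraries. The assembled isoform MSTRG.32472.3, which spans chr6:49243928-49264030 with 7 exons and 3624 bases, had 958, 178 and 275 counts in PS_high and 1861, 2267 and 1683 counts in control. Every PS_high library was below every control library. Its log2 fold change was -1.94 (SE 0.68, unadjusted p = 0.0323, adjusted p = 1 in edgeR). It covers the same span as the NMD isoform and as the retained-intron isoform ENSMUST00000204818. Reads in exons that these isoforms share can be assigned to any of them. The part of this division in the counts of the NMD isoform was not tested. Control replicate 2, with the most counts of the assembled isoform (2267), had the fewest of ENSMUST00000204818 (469). The coding type of the assembled isoform is not given.

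The retained-intron isoforms of Tra2a held most of its counts, 69.3%, 84.3% and 83.7% in PS_high and 71.9%, 56.5% and 73.1% in control. The larger one, ENSMUST00000204013, is a single exon of 3788 bases at the start of the gene, with 2485, 1625 and 1728 counts in PS_high and 2893, 2473 and 2912 in control (log2 fold change -0.37, SE 0.23, adjusted p = 1 in edgeR). The multi-exon one, ENSMUST00000204818, had 889, 1665 and 1599 counts in PS_high and 1872, 469 and 1662 in control. Both groups overlapped for it, with the highest and the lowest value in control. NMD and retained-intron isoforms together made up 80.3% to 95.4% of the Tra2a count in PS_high and 56.5% to 73.1% in control, the remainder being the assembled isoform.

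**Figure D3:**
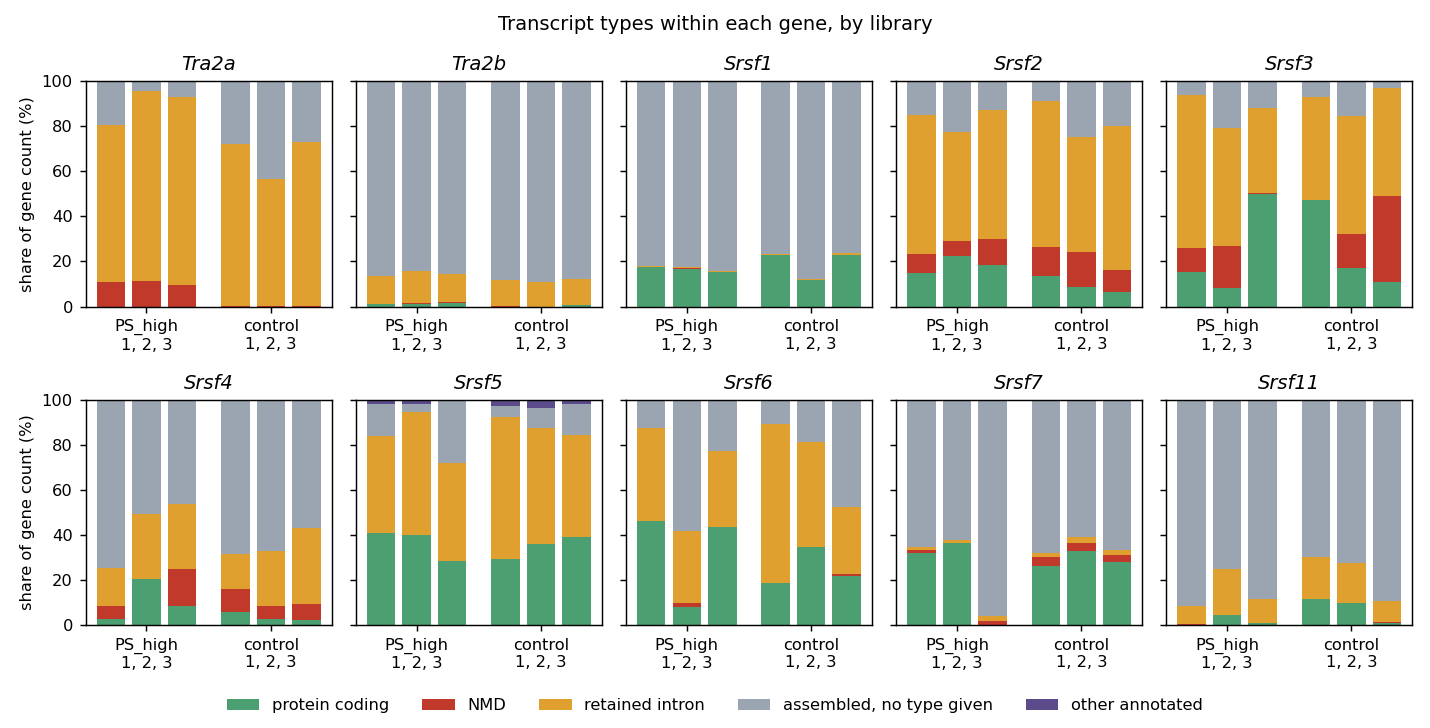
Share of each gene's estimated count (%) by annotated transcript type, 1 bar per library in the order 1, 2, 3, PS_high to the left of control. In Tra2a an NMD share of 9.4% to 11.1% is seen in PS_high libraries, against at most 0.019% in control libraries, while in Srsf3, Srsf6 and Srsf7 the shares differ most between libraries of the same group.

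No NMD isoform of Tra2b showed the difference seen for that of Tra2a. The NMD isoforms together had 0, 26 and 10 counts in PS_high and 37, 0 and 0 in control, and the class did not reach the filter. Annotated coding isoforms of Tra2b had 66, 58 and 114 counts in PS_high and 0, 0 and 39 in control. The assembled isoform MSTRG.15092.3 had 274, 290 and 270 counts in PS_high and 0, 0 and 127 in control. Neither reached the filter, so neither was tested. For both, every PS_high library was above every control library. Assembled isoforms held 84.4% to 86.4% of the gene in PS_high and 87.9% to 89.3% in control. Measured by FPKM they held 54.3% to 62.3% in PS_high and 62.1% to 70.6% in control, with overlap. The retained-intron share, most of it the single-exon isoform ENSMUST00000232411, was 12.7%, 13.9% and 12.5% in PS_high and 11.4%, 10.7% and 11.6% in control. The groups did not overlap, with a log2 fold change of the share of 0.21 (SE 0.08, unadjusted p = 0.047, adjusted p = 1 in edgeR). Measured by FPKM the retained-intron share was 29.0% to 32.9% in PS_high and 29.4% to 34.3% in control, with overlap. The level of the isoform was 922, 687 and 777 counts in PS_high and 933, 729 and 928 in control (log2 fold change 0.02, SE 0.24).

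Over the family, 3 of 31 class levels had an unadjusted p below 0.05 in edgeR (the NMD and assembled classes of Tra2a and the coding class of Srsf2), where 3.86% of all classes did. Likewise 4 of 31 class shares had an unadjusted p below 0.05 in edgeR, where 4.41% of all shares did: the NMD and assembled shares of Tra2a, the retained-intron share of Tra2b and the coding share of Srsf2. In shares of counts the groups did not overlap for 6 of the 31, 3 higher and 3 lower in PS_high, where 9.7% of all class shares had groups without overlap. These 6 are not independent, since the shares of a gene make up its whole count. In Tra2a the NMD share was higher and the assembled share lower. In Tra2b the retained-intron share was higher and the assembled share lower. In shares of FPKM the groups overlapped for both of these Tra2b shares and for the coding share of Srsf2. The NMD class of Tra2a met the filter on low values through PS_high alone, and that of Srsf7 through control alone. Among isoforms, 3 of 58 had an unadjusted p below 0.05, against 3.49% of all isoforms, and 10 of 58 had groups without overlap in CPM (3 higher, 7 lower), against 8.39%.

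**Figure D4:**
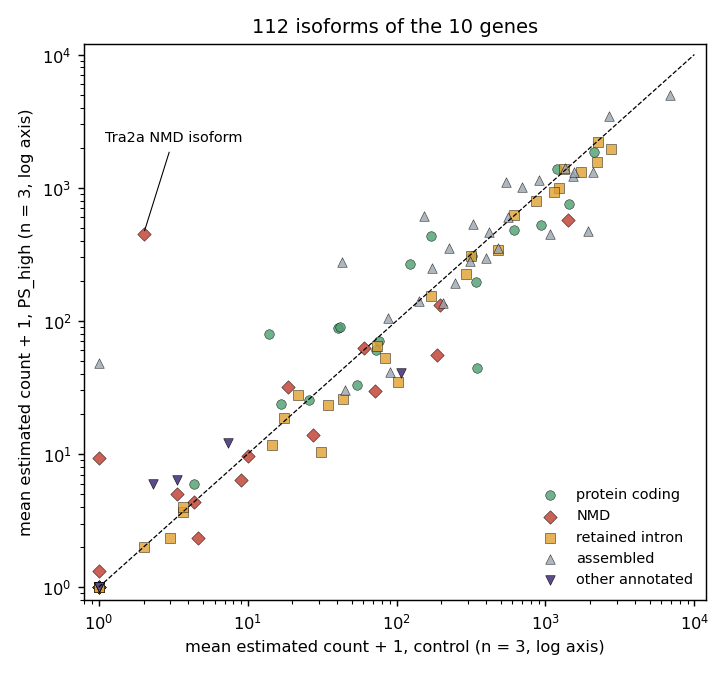
Mean estimated count plus 1 of the 112 isoforms, PS_high on the vertical and control on the horizontal axis (both log axes, 3 libraries each); the dashed line marks equal values and the symbol the transcript type. The Tra2a NMD isoform stands at 447 counts in PS_high and 1 in control, far above the line, and the other NMD isoforms with at least 100 counts in a group lie on or below it.

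Srsf2 has its unproductive forms in the region after the stop codon. Its annotated coding isoform ENSMUST00000092404, which has 3 exons and 1899 bases, had 264, 375 and 161 counts in PS_high and 110, 150 and 109 in control. Every PS_high library was above every control library. The log2 fold change was 1.29 (SE 0.46, unadjusted p = 0.0352, adjusted p = 1 in edgeR). The coding share of Srsf2 was 15.0%, 22.3% and 18.3% in PS_high and 13.5%, 8.9% and 6.5% in control (log2 fold change of the share 0.94, SE 0.33, unadjusted p = 0.037, adjusted p = 1 in edgeR). Measured by FPKM, the coding share of Srsf2 was 12.2%, 18.4% and 17.3% in PS_high and 12.4%, 7.6% and 5.7% in control, with overlap. Its main NMD isoform, ENSMUST00000176834, had 130, 102 and 162 counts in PS_high and 190, 210 and 186 in control (log2 fold change -0.44, SE 0.28). The retained-intron isoform ENSMUST00000138484 made up 48.2% to 61.8% of the gene in PS_high and 50.9% to 64.8% in control, with 1089, 810 and 1059 counts in PS_high and 1072, 1231 and 1415 in control.

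In Srsf3 the NMD isoform and the coding isoform varied more between libraries of a group than between the groups. The NMD isoform ENSMUST00000037776, which has 7 exons, had 750, 915 and 36 counts in PS_high and 0, 950 and 3282 in control. The coding isoform ENSMUST00000130216, with 6 exons, had 1059, 416 and 4106 counts in PS_high and 4288, 1092 and 957 in control. Libraries with the fewest NMD counts, PS_high replicate 3 and control replicate 1, had the most coding counts. These isoforms overlap over nearly the whole gene (chr17:29032632-29042897 and chr17:29032628-29043373). The NMD class had a log2 fold change of -1.05 with an SE of 2.12. Retained-intron transcripts of Srsf3 made up 52.7% ± 15.1 of the gene in PS_high and 48.8% ± 3.6 in control (SD, 3 libraries each).

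Srsf7 had low NMD counts. Its NMD isoform ENSMUST00000234503 had 64, 0 and 98 counts in PS_high and 237, 152 and 170 in control, a share of 1.5%, 0% and 1.9% in PS_high and 3.8%, 3.6% and 3.1% in control. The 0 in 1 library allows up to 3 counts there by counting error alone, which leaves out the error of splitting shared reads among isoforms. All PS_high libraries were below all control libraries. In FPKM the isoform had 0.418, 0 and 0.67 in PS_high and 1.53, 1.03 and 1.07 in control. It is the only isoform of its class, and both met the filter on low values through the control libraries. The log2 fold change of the share was -1.61 with an SE of 1.44 (unadjusted p = 0.315 in edgeR). The coding isoform ENSMUST00000063417 had 1294, 962 and 0 counts in PS_high and 1575, 1321 and 1432 in control, and the assembled isoform MSTRG.17719.1, whose span overlaps it, had 206, 206 and 1429 counts in PS_high and 129, 193 and 135 in control. The library without the coding isoform was the one with the high count of the assembled one.

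The remaining NMD classes held few counts. In Srsf4 the NMD isoforms had 61, 2 and 160 counts in PS_high and 104, 59 and 95 in control, with ENSMUST00000134943 at 47, 0 and 137 in PS_high and 95, 0 and 84 in control. Neither Srsf1, Srsf5, Srsf6 nor Srsf11 had an NMD class that reached the filter, and their NMD share was at most 1.9% in any PS_high library and at most 0.79% in any control library. Of the 5 NMD classes tested in the family, 1 had a log2 fold change above 0 (Tra2a) and 4 below 0, with a median of -0.61. Of the 9 retained-intron classes tested, 2 were above 0 and 7 below 0, with a median of -0.18, against -0.02 over all 5996 retained-intron classes. Of the 7 coding classes, 3 were above and 4 below 0, with a median of -0.12, against 0.02 over all 11672.

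Retained-intron transcripts took large shares in several genes without passing the threshold in any. For Srsf5 the isoform ENSMUST00000151036 had 1306, 1197 and 1399 counts in PS_high and 1816, 1519 and 1857 in control (log2 fold change -0.27, SE 0.20). Its coding isoform ENSMUST00000110356 had 455, 712 and 417 counts in PS_high and 491, 1166 and 1146 in control (log2 fold change -0.65, SE 0.48). For Srsf6 the retained-intron isoform ENSMUST00000193611 had 1637, 1562 and 1462 counts in PS_high and 2747, 1841 and 2014 in control (log2 fold change -0.36, SE 0.25), and the coding isoform ENSMUST00000130411 had 1836, 397 and 1898 counts in PS_high and 733, 1365 and 1458 in control (log2 fold change 0.32, SE 0.62). The retained-intron isoform ENSMUST00000150157 of Srsf3 had 3350, 1443 and 1814 counts in PS_high and 2614, 1707 and 2456 in control. For Srsf4 ENSMUST00000030743 had 175, 213 and 284 counts in PS_high and 165, 249 and 458 in control. Srsf11, in contrast, was made up mostly of assembled isoforms (75.2% to 91.4% in PS_high and 70.015% to 89.2% in control). Its retained-intron isoform ENSMUST00000199742 had 685, 434 and 742 counts in PS_high and 705, 593 and 537 in control, and its coding isoform ENSMUST00000072875 had 3, 127 and 0 counts in PS_high and 597, 445 and 0 in control (log2 fold change -2.76, SE 2.80). In Srsf1, where assembled isoforms also held most counts, the coding isoform ENSMUST00000079866 had 535, 433 and 463 counts in PS_high and 667, 556 and 617 in control (log2 fold change -0.22, SE 0.24).

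Summed over the 10 genes, the libraries had 49627, 34474 and 47123 counts in PS_high and 51758, 45546 and 55590 in control. Of these, NMD isoforms made up 3.2%, 4.7% and 1.9% in PS_high and 1.15%, 3.39% and 6.92% in control, and the groups overlapped. Retained-intron isoforms made up 29.0%, 34.1% and 27.4% in PS_high and 33.9%, 29.3% and 29.8% in control. Assembled isoforms, whose type is not given, held 53.3%, 47.7% and 52.9% in PS_high and 45.5%, 52.3% and 50.2% in control. In this sum the NMD isoform of Srsf3 alone had up to 3282 counts in 1 control library.

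The last question was how the rest of the pathway behaved at the gene level. None of the 78 genes tested in 5 lists passed the threshold in edgeR, and 3 of 78 had an unadjusted p below 0.05, beside 0.0247% called and 2.73% at that unadjusted p over all genes. Of the 12 other SR and SR-related genes, 6 had a log2 fold change above 0 and 6 below, with a median of 0.03. Srrm2, a large scaffold protein of nuclear speckles, had 0.30 (SE 0.13, unadjusted p = 0.0458), and Acin1, which binds RNA at exon junctions, had 0.25 (SE 0.17). Of the 10 genes for SR kinases and SR import, which phosphorylate SR proteins or carry them into the nucleus, 3 were above and 7 below 0, with a median of -0.14. Clk3 had -0.42 (SE 0.18, unadjusted p = 0.0459) and Clk2 -0.26 (SE 0.18), both kinases of SR proteins in the nucleus.

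The 20 genes of the NMD machinery had 11 log2 fold changes above 0 and 9 below, with a median of 0.03. Upf3a, which links exon junctions to the decay complex, had -0.24 (SE 0.23) and Upf2, its partner, 0.26 (SE 0.29). Among 8 genes whose transcripts are known to be removed by NMD, 3 were above and 5 below 0, with a median of -0.04. Snhg12, a host of small nucleolar RNAs, had 0.76 (SE 0.56), and Gadd45a, a stress-response gene, had -0.39 (SE 0.29). Of 28 hnRNP and other splicing factor genes, 18 were above and 10 below 0, with a median of 0.07. U2af1l4, a relative of the factor that recognises the end of introns, had 0.88 (SE 0.31, unadjusted p = 0.0233), and Ptbp3, a relative of the splicing repressor Ptbp1, had -0.37 (SE 0.21).

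**Figure D5:**
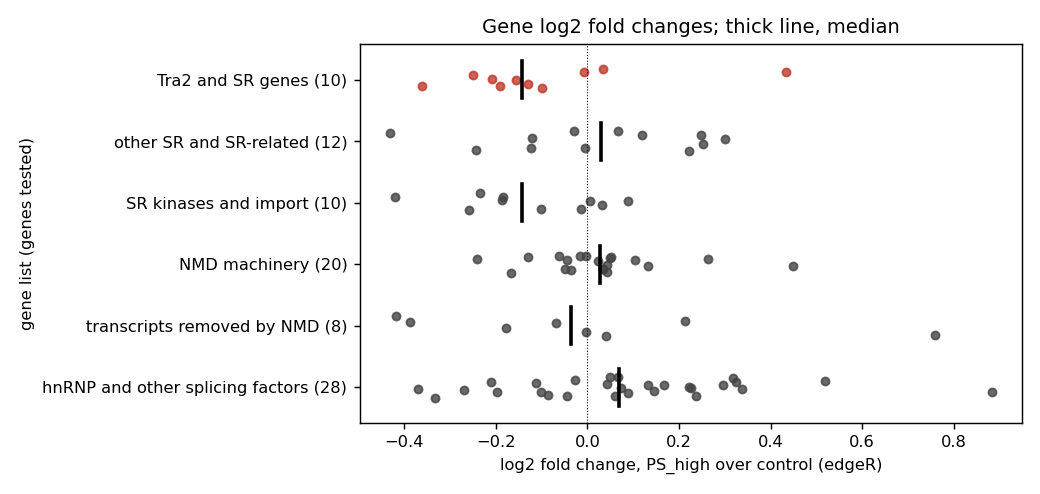
Log2 fold change (PS_high over control, edgeR) of each tested gene, the 10 Tra2 and SR genes in red and 5 pathway lists in grey, with the median as a thick line and the number of genes tested in brackets. The medians lie between -0.14 and 0.07, and no gene shown passed the threshold.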

How the data were processed

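Per the labels, ribosomal RNA was removed (Ribo-Zero) and stranded libraries were made. HISAT2, StringTie and TopHat are credited in the submitters' processing notes, while no source used here gives versions or the genome build. The authors deposited an estimated count and an FPKM for each linear isoform, and a count of back-splice reads for each circRNA. The deposited FPKM is 0.0001 where the estimated count is 0. Estimated counts were whole numbers and were summed per gene, isoform, and gene and transcript type, over isoforms sharing exons with the gene. Shares are percentages of the gene's count.

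Features with a mean of at least 0.5 FPKM were tested across the whole table with edgeR 4.0.16 (R 4.3.3; quasi-likelihood, two-sided, TMM factors, Benjamini-Hochberg threshold 0.05). The share test added the log of the gene count plus 1 as an offset. The SE given with an edgeR result is the absolute log2 fold change divided by the square root of the test's F statistic. DESeq2 1.42.0, limma 3.58.1 and other settings were alternatives. The fits were tested on simulated data. There the isoform fit missed most of the changes put in, and the class fit missed nearly all of the smaller ones. The gene fit and the share fit missed most of the smallest ones. The members and gene lists were chosen with earlier results of these data known. All 10 genes are named, with each type's most abundant tested isoform, isoforms past the threshold or below an unadjusted p of 0.05, and the 2 list genes of smallest p. Transcript types are those of the table. The intervals cover counting error only. Sequences of the poison exons are not used here.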

Additional observations from a re-analysis of the deposited data

How the results depend on the processing

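The number of genes called (5) was 0 to 17 when 1 library was left out, 0 with a replicate block, 2 without the FPKM filter, 0 with annotated isoforms only, 47 with DESeq2, and 0 with limma on log2(FPKM + 0.1) and 0 with log2(FPKM + 1). Isoforms called (3) numbered 0 to 1 without 1 library, 0 with a replicate block, 0 without the filter, 1211 with DESeq2, and 32 and 20 with limma at pseudocounts of 0.1 and 1. Classes called (2) numbered 0 to 4 without 1 library, 0 with a replicate block, 301 with DESeq2 and 11 with limma at a pseudocount of 1. Class shares called (2) numbered 0 to 11 without 1 library, 0 with a replicate block, 1 without the filter and 6 with annotated isoforms only. For the Tra2a NMD isoform the adjusted p was 1 with a replicate block, 0.106 to 0.357 without 1 library, 0.138 without the filter and 0.054 with limma at a pseudocount of 1. For the Tra2a NMD class it was 0.589 with the block, 0.0358 to 0.144 without 1 library and 0.0666 with limma at a pseudocount of 0.1, and for the Tra2a NMD share 0.375 with the block and 0.015 to 0.0517 without 1 library. With counts rounded to the nearest read, a setting chosen after seeing the data, 0 isoforms and 1 class were called, and the adjusted p was 0.25 for the Tra2a NMD isoform, 0.205 for the class and 0.0812 for the share. The log2 fold change stayed positive in all these fits. The cause of these changes was not tested. Replicate numbers do not pair the samples by the labels, and the correlations of same-numbered samples were 0.155, 0.089 and 0.06, although every sample correlated best with its own number. The difference in the NMD share of Tra2a was 10.5 percentage points in counts, 16.2 in FPKM and 11.8 over annotated isoforms only, where the retained-intron difference was -11.8 instead of 12.0. None of the 10 gene totals passed the threshold in any alternative. With annotated isoforms only the log2 fold change was 0.037 for Tra2a, 0.11 for Tra2b, 0.044 for Srsf4, -0.07 for Srsf6 and -0.39 for Srsf11, each of the opposite sign to the value over all isoforms. Srsf6 was at -0.005 with limma at both pseudocounts. Leaving out 1 library gave -0.22 to 0.038 for Srsf2, -0.259 to 0.008 for Srsf3, -0.058 to 0.042 for Srsf5 and -0.13 to 0.277 for Srsf6, and, without a change of sign, -0.424 to -0.021 for Srsf1, -0.376 to -0.079 for Srsf7, 0.099 to 0.743 for Srsf11, -0.318 to -0.117 for Tra2b, -0.455 to -0.251 for Tra2a and -0.254 to -0.068 for Srsf4. Srsf7 was at -0.797 with annotated isoforms only. The circRNA fits were not run, since no circRNA of these genes had reads in 3 libraries. NMD classes outside Tra2a, Srsf2, Srsf3, Srsf4 and Srsf7 were too low to be tested.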

Other observations

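Circular RNAs of these genes were rare. Of 17369 circRNAs, 5 had 1 of the 10 genes as host (Srsf1, Srsf2, Srsf11 and a pair in Srsf3), with 1 back-splice read in all PS_high libraries and 5 in all control libraries. None had reads in 3 or more libraries, against 3275 of all circRNAs. Isoforms that carry these symbols without sharing exons with the gene were left out of the sums: 3 inside introns of Srsf4, and 1 each near Srsf3 and Srsf6.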
